A study of Mus musculus with 8 samples.

Results

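The 10 genes described here belong to the glucocorticoid response and to the C/EBP transcription factors: the activating enzyme Hsd11b1, the receptors Nr3c1 and Nr3c2, the glucocorticoid-induced genes Fkbp5, Tsc22d3, Sgk1 and Zbtb16, and the factors Cebpa, Cebpb and Cebpd. They were chosen by name among 22180 genes that had a probe set of their own, and each was represented by its brightest probe set over the arrays. All 10 had one. The cells were lung mesenchyme of C57BL/6J mice, 11 weeks old and kept free of specific pathogens. The control group had received phosphate-buffered saline through the trachea and the other group bleomycin by the same route, an antibiotic that breaks DNA and whose instillation is a standard model of lung fibrosis. On day 10, cells negative for CD45 (leukocytes), CD31 (endothelium) and EpCAM (epithelium) were sorted from whole lungs, a gate meant to leave mesenchymal cells of all types. Markers of epithelium and endothelium were still present on these arrays, and their values are given below. There were 4 control arrays and 4 bleomycin arrays, each 1-colour. The labels do not say whether replicates came from separate animals, so a p-value reflects the spread among these samples alone, and that spread may be technical.

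Glucocorticoids are steroid hormones of the adrenal cortex that restrain inflammation and shift metabolism. Inside the cell, Hsd11b1 turns the inert 11-keto form into the active hormone. The hormone then binds the glucocorticoid receptor Nr3c1, or the mineralocorticoid receptor Nr3c2, and the receptor moves to the nucleus and switches on targets such as Tsc22d3 and Fkbp5. C/EBP factors are basic leucine zipper proteins. In fibroblasts Cebpb and Cebpd respond to cytokines and hormones, and Cebpa acts with Pparg in lipid-storing cells. In lung mesenchyme the glucocorticoid receptor is needed for maturation of the tissue before birth.

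Bleomycin samples had lower levels of 6 of the 10 genes: Hsd11b1, both receptors, Tsc22d3, Zbtb16 and Cebpd. In these 6 genes every bleomycin array lay below every control array. In bulk samples like these, fewer cells of a type and less RNA per cell cannot be told apart. None of the 10 rose, at the adjusted threshold or at an unadjusted p under 0.05. Fkbp5, Sgk1, Cebpa and Cebpb did not pass the test. The test was limma's moderated linear model over all 22180 genes, with Benjamini-Hochberg adjustment and a threshold of 0.05. As background, 8.24% of all tested genes passed as lower and 9.12% as higher, 11% had all bleomycin arrays below all control arrays, and 12.5% the reverse, 23.5% together. The median log2 difference of the 10 genes was -0.53, against 0.03 over all tested genes. The 10 genes were chosen with earlier results of these data known, so the contrast with all genes is a description. Centring each array on its median, which changed the overall split from 2022 higher and 1828 lower to 1623 and 2314, left the same number of these genes lower, 6. The call of Zbtb16 was lost when any of 3 single arrays was left out, as given with its values.

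**Figure D1:**
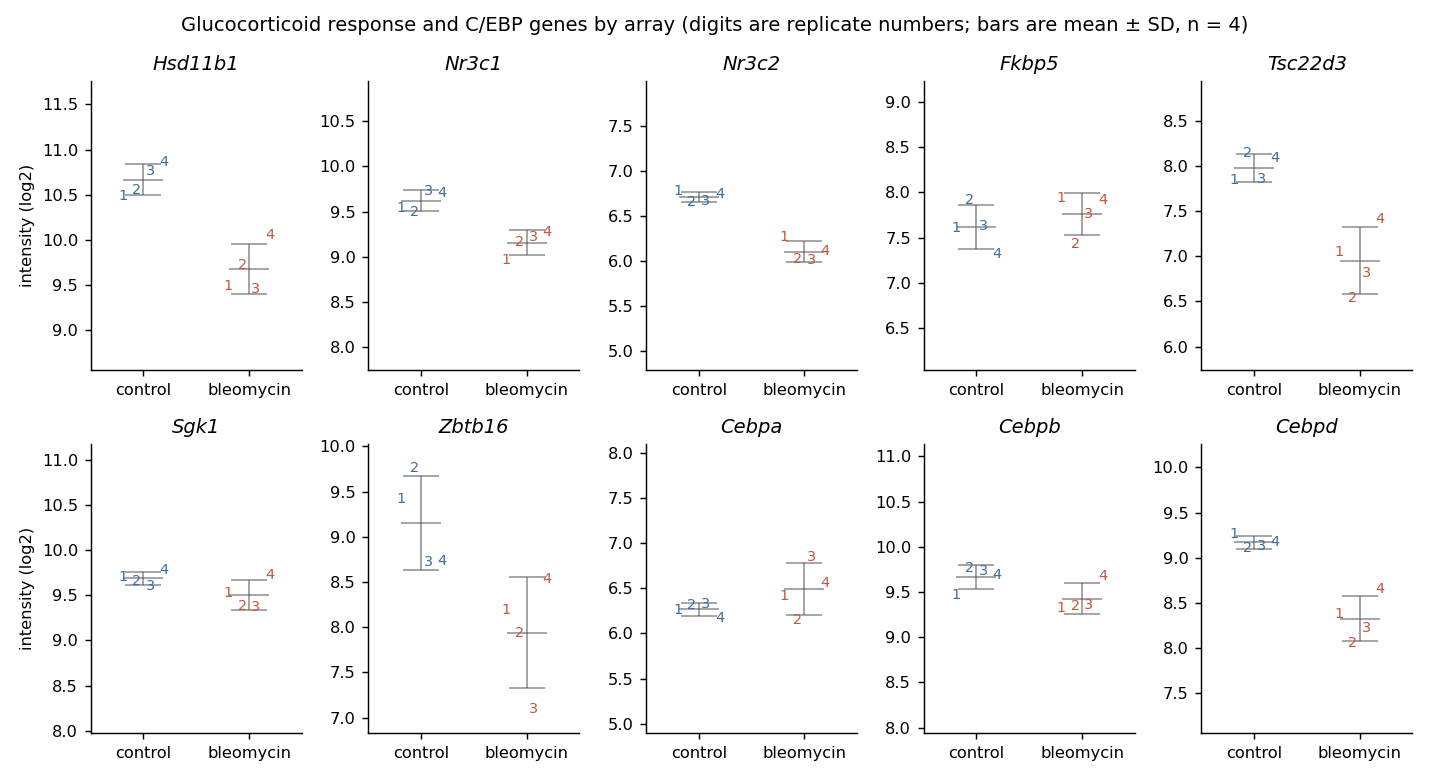
Log2 intensity of each of the 10 genes on each array; digits are replicate numbers, grey bars the mean ± SD of 4 arrays, and every panel spans the same height. In Hsd11b1, Nr3c1, Nr3c2, Tsc22d3, Zbtb16 and Cebpd the red bleomycin digits all lie below the blue control digits, and in Fkbp5, Sgk1, Cebpa and Cebpb the groups overlap.

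Hsd11b1 encodes 11-beta-hydroxysteroid dehydrogenase type 1, the reductase that regenerates active hormone within tissues. Its log2 intensity on control arrays 1 to 4 was 10.49, 10.55, 10.76 and 10.86, and on bleomycin arrays 1 to 4 it was 9.48, 9.72, 9.46 and 10.06. The groups were separated by 0.434 between the lowest control and the highest bleomycin array. The mean fell from 10.67 ± 0.17 to 9.68 ± 0.28 (log2, SD, n = 4 each), a difference of -0.99 ± 0.14 (SE; limma adjusted p = 0.00125), or 1.98-fold lower. Only 1.32% of all tested genes had a lower difference. Hsd11b1 was higher on control arrays 3 and 4 than on 1 and 2, and it differed by -0.92 within replicates 1 and 2 and by -1.05 within replicates 3 and 4.

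H6pd, which supplies the reductase with NADPH in the endoplasmic reticulum, fell from 10.57 ± 0.16 to 10.17 ± 0.12 (n = 4 each), by 0.40 ± 0.11 (limma adjusted p = 0.0252). Its call was lost when control replicate 3 or 4, or bleomycin replicate 1, 2 or 3, was left out (adjusted p between 0.0582 and 0.0753). The opposing enzyme Hsd11b2, which inactivates the hormone and is named here outside the rule for named genes because it is the counterpart of Hsd11b1, stood at 5.60 ± 0.19 in control and 5.45 ± 0.09 in bleomycin samples and did not pass, with an interval of the log2 difference from -0.39 to 0.09. Of the 10 measured genes of hormone synthesis, inactivation and export, 1 rose and 2 fell, with a median of -0.04. Among all tested genes 9.12% passed as higher and 8.24% as lower. Abcb1a, an efflux pump that also carries steroids, fell by 0.95 ± 0.22, and by 0.57 without control replicates 1 and 2, where it did not pass (adjusted p = 0.111). The steroid dehydrogenase Akr1c18 rose by 0.65 ± 0.14 (adjusted p = 0.00905), from a control level of 3.63 that lies below the median probe set that has no gene.

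Both receptors fell. The glucocorticoid receptor Nr3c1 read 9.55, 9.50, 9.73 and 9.71 on control arrays 1 to 4 and 8.96, 9.17, 9.22 and 9.28 on bleomycin arrays 1 to 4. All bleomycin values lay below all control values, by at least 0.219. Nr3c1 fell by 0.46 ± 0.10 on the log2 scale (limma adjusted p = 0.00966), which is 1.38-fold. The mineralocorticoid receptor Nr3c2 read 6.77, 6.65, 6.67 and 6.74 on control arrays and 6.26, 6.02, 6.01 and 6.11 on bleomycin arrays. Control values of Nr3c2 were tightly grouped, with an SD of 0.06, and the groups stood 0.388 apart. It fell by 0.61 ± 0.09 (limma adjusted p = 0.00119), or 1.52-fold.

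A second Nr3c2 probe set, at 2.23 in control and 2.18 in bleomycin samples, was dimmer than the median probe set without a gene (4.19 to 4.52 across arrays). With both probe sets averaged, Nr3c2 differed by -0.33 and did not pass (adjusted p = 0.0521). The responses of the receptors were set against each other array by array. The log2 difference of Nr3c1 was higher than that of Nr3c2 by 0.14 ± 0.13 (SE; exact permutation test, two-sided, p = 0.286, n = 4 each), and unequal falls were not detectable with all arrays. Without bleomycin replicate 1 the value was 0.26 (exact permutation test, adjusted p = 0.0571, the smallest that 3 against 4 arrays can give), and without bleomycin replicate 3 it was 0.09.

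Among 17 measured chaperones and co-regulators of these receptors 3 fell and 2 rose, with a median of -0.10. Over all tested genes 8.24% passed as lower and 9.12% as higher, so these counts are not far from the background. The 3 that fell form the p160 family of steroid receptor coactivators: Ncoa1 by 0.39 ± 0.12, Ncoa2 by 0.37 ± 0.08 and Ncoa3 by 0.29 ± 0.08 (limma adjusted p of 0.0491, 0.0128 and 0.037). The Hsp70-Hsp90 adaptor Stip1 rose by 0.42 ± 0.12 and the chromatin remodelling ATPase Smarca4 by 0.38 ± 0.09 (adjusted p of 0.0355 and 0.0201). Without control replicates 1 and 2, none of these 5 passed (adjusted p between 0.101 and 0.228). Leaving out single arrays ended the call of Ncoa1 in 6 of 8 cases (every array but bleomycin replicates 2 and 4; adjusted p up to 0.13) and that of Ncoa3 in 7 of 8 (every array but bleomycin replicate 4; up to 0.0975). The call of Stip1 was lost without control replicate 1, 2 or 3 or bleomycin replicate 1 or 3 (adjusted p of 0.0581 to 0.0957), and also with median centring (0.0554). Smarca4 lost its call without control replicate 1 or bleomycin replicate 1 or 3 (0.0566 to 0.059), while Ncoa2 passed without each single array. All 5 differences are under 1.5-fold.

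**Figure D2:**
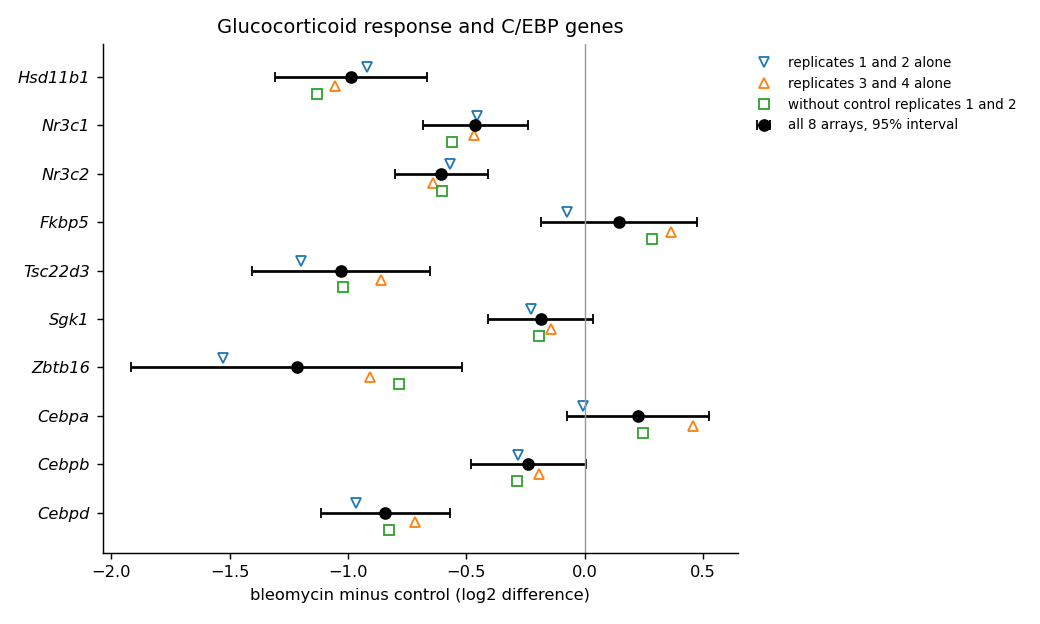
Log2 difference of bleomycin minus control for each of the 10 genes, with the 95% interval from all 8 arrays (black) and the difference in subsets of arrays (open symbols). For Hsd11b1, Nr3c1, Nr3c2, Tsc22d3 and Cebpd all 4 symbols lie left of -0.4, while those of Zbtb16 spread from -1.53 to -0.79.

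The glucocorticoid-induced targets split. Tsc22d3 encodes GILZ, a leucine zipper protein that carries part of the anti-inflammatory action of the hormone. It read 7.84, 8.14, 7.86 and 8.09 on control arrays 1 to 4 and 7.05, 6.54, 6.81 and 7.41 on bleomycin arrays 1 to 4. The groups stood 0.431 apart, and bleomycin arrays were more spread than controls, with SDs of 0.37 and 0.16. Tsc22d3 fell by 1.03 ± 0.17 (limma adjusted p = 0.00239), or 2.04-fold.

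Zbtb16 encodes the zinc finger repressor PLZF, which glucocorticoids induce strongly in many cell types. It was the most variable of the 10 genes. Control arrays 1 and 2 read 9.41 and 9.76 and control arrays 3 and 4 read 8.72 and 8.73, and bleomycin arrays 1 to 4 read 8.19, 7.93, 7.10 and 8.54. Zbtb16 fell by 1.22 ± 0.31 (limma adjusted p = 0.0236), or 2.32-fold. Its call was lost without control replicate 1, control replicate 2 or bleomycin replicate 2 (differences of -1.13, -1.01 and -1.22; adjusted p of 0.0642, 0.0616 and 0.0512). Without both control replicates 1 and 2 it differed by -0.79 (adjusted p = 0.189). Control replicates 1 and 2 were also those with the higher epithelial and endothelial marker levels given below, and the part of these cells in the Zbtb16 difference was not tested.

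Fkbp5 and Sgk1 did not pass. Fkbp5 encodes FKBP51, a co-chaperone that holds the receptor in a form of low affinity and that the hormone itself induces. It read 7.60, 7.91, 7.63 and 7.32 on control arrays and 7.94, 7.42, 7.76 and 7.92 on bleomycin arrays, with the groups interleaved. The difference was 0.14 ± 0.15 (limma adjusted p = 0.566), and its 95% interval of -0.19 to 0.47 does not reach the falls measured for Hsd11b1 or Tsc22d3. Within replicates 1 and 2 alone the sign of the Fkbp5 difference turned, at -0.08. Sgk1, a kinase that raises sodium transport and also answers to serum and stress, read 9.70, 9.66, 9.60 and 9.78 on control arrays and 9.52, 9.38, 9.37 and 9.72 on bleomycin arrays. Only bleomycin replicate 4 lay inside the control range, and the difference was -0.19 ± 0.10 (adjusted p = 0.244; interval -0.41 to 0.04).

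Outside the 10 genes, most of the other genes on a list of glucocorticoid-induced genes fell as well. Of 28 measured genes 18 fell and none rose at the adjusted threshold, and 2 were higher at an unadjusted p under 0.05. Their median log2 difference was -0.53, against 0.03 over all tested genes, and 8.24% of all tested genes passed as lower. Of the 18, 5 fell by over 2-fold and 12 by over 1.5-fold. Without control replicates 1 and 2, 12 of the 28 passed as lower, and with 2 arrays per group 11 passed within replicates 1 and 2 and 4 within replicates 3 and 4. Of all 22180 genes, 992, 833 and 220 passed as lower in these subsets, in the same order. The list was written with earlier results of these data known, and several of its genes also answer to serum, fasting or stress.

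Glul, glutamine synthetase, showed the largest fall on that list. It read 11.29, 11.30, 11.26 and 11.34 on control arrays 1 to 4 and 9.56, 9.78, 9.74 and 10.09 on bleomycin arrays 1 to 4. The control arrays lay close together and far above the bleomycin arrays, and the fall of 1.51 ± 0.11 (limma adjusted p = 3.14e-05) was 2.84-fold. Klf15, a transcription factor that the receptor induces and that drives amino acid breakdown, went from 8.02 ± 0.07 to 6.53 ± 0.36 (SD, n = 4 each). Rgcc, a regulator of cell cycle kinases, went from 7.44 ± 0.14 to 6.07 ± 0.13. Klf15 was 2.82-fold and Rgcc 2.59-fold lower (limma adjusted p of 0.000199 and 3.09e-05).

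A further 7 genes of the list are named outside the rule, after their values were seen. Klf9, which the receptor induces directly, fell by 0.66 ± 0.09, the phosphatase gene Dusp1 by 0.45 ± 0.09 and the clock gene Per1 by 0.34 ± 0.10 (limma adjusted p of 0.000956, 0.00676 and 0.0367). The NF-kB inhibitor Nfkbia, the annexin Anxa1 and the metallothioneins Mt1 and Mt2 did not pass, with differences of -0.27, 0.23, 0.03 and 0.33 (adjusted p of 0.0844, 0.117, 0.886 and 0.142). Textbook targets of the hormone were thus among both the genes that fell and those that did not pass.

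**Figure D3:**
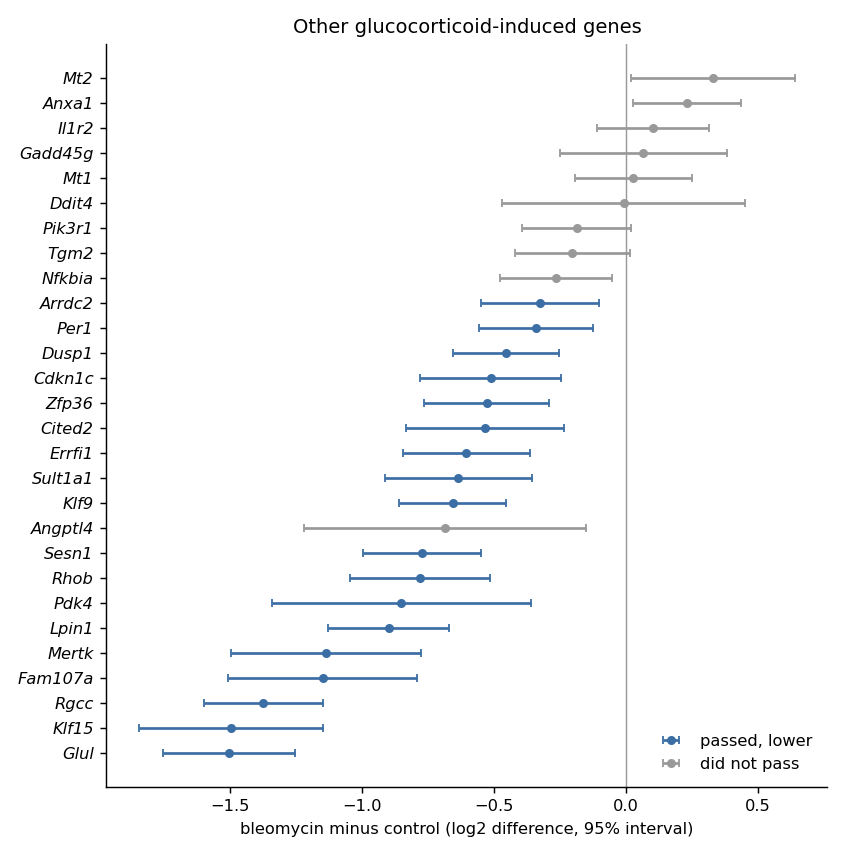
Log2 difference of bleomycin minus control for 28 other glucocorticoid-induced genes, sorted, with 95% intervals. The 18 genes that passed the test (blue) all lie left of 0, with Glul lowest at -1.51, and the 10 that did not pass (grey) run up to 0.33.

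The sequences near the starts of these genes were searched for the receptor's palindrome, GNACA and TGTNC with any 3 bases between them, which reads the same on both strands, and for a C/EBP core, TTGCNNAA, with its reverse complement TTNNGCAA. Windows of 300 bases, from 250 before to 50 after each annotated start, came from RefSeq (GRCm38.p6). Of the 10 genes 7 had at least 1 window, 14 windows in all, and Nr3c1, Zbtb16 and Cebpd were not searched. The palindrome was found in 0.475% of 32851 windows of the mouse genome and the C/EBP core in 10.8%. These are shares of windows, whereas the counts below are of genes, some with several windows, so they cannot be compared directly. A match describes letters and not a bound site.

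The palindrome lay near 1 of the 7 genes, in 1 of the 6 windows of Sgk1, which did not pass the test. Among the other glucocorticoid-induced genes 25 of 28 had a window, and 2 held the palindrome, both named outside the rule after their values were seen: Fam107a, an actin-binding stress-response gene that fell by 1.15 ± 0.16 (limma adjusted p = 0.000989), and Mt1, which differed by 0.03. The 3 sites are shown because they set the same motif beside different measured changes. Capitals mark the palindrome, which began 188, 118 and 94 bases before the start. The printed stretches, each the palindrome with 10 bases on either side, lie at chr10:21993692-21993724 (plus strand), chr14:8309875-8309907 (minus strand) and chr8:94178985-94179017 (plus strand).
Sgk1: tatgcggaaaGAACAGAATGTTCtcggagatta
Fam107a: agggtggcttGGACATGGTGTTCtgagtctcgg
Mt1: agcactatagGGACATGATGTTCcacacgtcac

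The C/EBP core lay near 2 of the 7 genes, Nr3c2 and Sgk1, and near Anxa1, Mt2 and Per1 on the other list. The Nr3c2 window (chr8:76902080-76902379, plus strand) held 2 matches, in capitals. It is shown beside that of Hsd11b1 (chr1:193242311-193242610, minus strand), which held neither motif and is therefore wholly in lower case, because both genes fell.
Nr3c2: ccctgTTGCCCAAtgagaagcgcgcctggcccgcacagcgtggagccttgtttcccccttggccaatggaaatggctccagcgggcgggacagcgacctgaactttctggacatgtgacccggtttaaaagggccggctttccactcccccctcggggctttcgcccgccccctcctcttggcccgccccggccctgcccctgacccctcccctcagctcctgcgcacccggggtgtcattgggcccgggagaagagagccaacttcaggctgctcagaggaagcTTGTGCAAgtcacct
Hsd11b1: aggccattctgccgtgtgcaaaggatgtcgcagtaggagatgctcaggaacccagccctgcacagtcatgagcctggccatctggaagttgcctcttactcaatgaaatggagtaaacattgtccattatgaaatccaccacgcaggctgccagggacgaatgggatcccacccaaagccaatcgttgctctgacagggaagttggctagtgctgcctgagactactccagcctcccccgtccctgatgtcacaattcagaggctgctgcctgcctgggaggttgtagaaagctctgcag

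The C/EBP factors differed from each other in their response. Cebpd, induced by glucocorticoids and by inflammatory cytokines, read 9.26, 9.11, 9.13 and 9.18 on control arrays 1 to 4 and 8.38, 8.06, 8.22 and 8.65 on bleomycin arrays 1 to 4. The groups stood 0.452 apart, the widest gap among the 10 genes. Cebpd fell by 0.84 ± 0.12 (limma adjusted p = 0.00125), or 1.79-fold.

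Cebpb, the factor first described as a nuclear mediator of interleukin 6 signalling, read 9.47, 9.76, 9.73 and 9.69 on control arrays and 9.32, 9.35, 9.35 and 9.68 on bleomycin arrays. Bleomycin replicate 4 lay within the control range and the other bleomycin arrays below it. The difference of -0.24 ± 0.11 did not pass (limma adjusted p = 0.172; interval -0.48 to 0.01). Cebpa, which promotes differentiation in fat and in alveolar epithelium, read 6.26, 6.31, 6.32 and 6.17 on control arrays and 6.41, 6.15, 6.85 and 6.56 on bleomycin arrays. Its difference of 0.23 ± 0.14 did not pass (adjusted p = 0.3), and the sign turned within replicates 1 and 2 alone, at -0.01.

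The responses were compared by subtracting one factor's log2 value from another's on each array, over 4 pairs that include the receptors. The response of Cebpd was lower than that of Cebpb by 0.60 ± 0.12 and lower than that of Cebpa by 1.07 ± 0.17, and the response of Cebpb was lower than that of Cebpa by 0.46 ± 0.17 (SE; exact permutation test, two-sided, p = 0.0286 each, adjusted p = 0.0381, n = 4 each). The smallest p that 4 against 4 arrays can give is 0.0286. With quantile normalization the adjusted p of the 3 pairs was 0.0571, 0.0571 and 0.0762.

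Genes linked to C/EBP factors moved in both directions. Of 14 acute phase and cytokine genes 7 rose and none fell at the adjusted threshold (1 was lower at an unadjusted p under 0.05), with a median of 0.54 and 9.12% of all tested genes passing as higher. The serum amyloid gene Saa3 rose from 6.45 ± 0.44 to 9.67 ± 0.40, haptoglobin, Hp, from 7.81 ± 0.22 to 9.80 ± 0.29 and the iron-sequestering lipocalin Lcn2 from 6.93 ± 0.62 to 8.77 ± 0.19 (SD, n = 4 each). These genes rose in samples in which Cebpd fell and Cebpb did not pass, and any action of the factors on them was not tested. Of 15 adipogenic genes 5 fell and 1 rose, with a median of -0.12 and 8.24% of all tested genes passing as lower. Cd36, a fatty acid uptake protein that capillary endothelium also makes, fell by 1.51 ± 0.28, and by 0.94 without control replicates 1 and 2 (limma adjusted p = 0.0183). The lipolysis inhibitor G0s2 fell by 1.41 ± 0.23. The adipogenic receptor Pparg fell by 0.54 ± 0.10, and lipoprotein lipase, Lpl, rose by 1.62 ± 0.22. Of the 6 other measured C/EBP and related bZIP genes, 1 passed, Atf4, a stress-response factor that fell by 0.43 (adjusted p = 0.0053). Among all tested genes 17.4% passed in either direction.

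**Figure D4:**
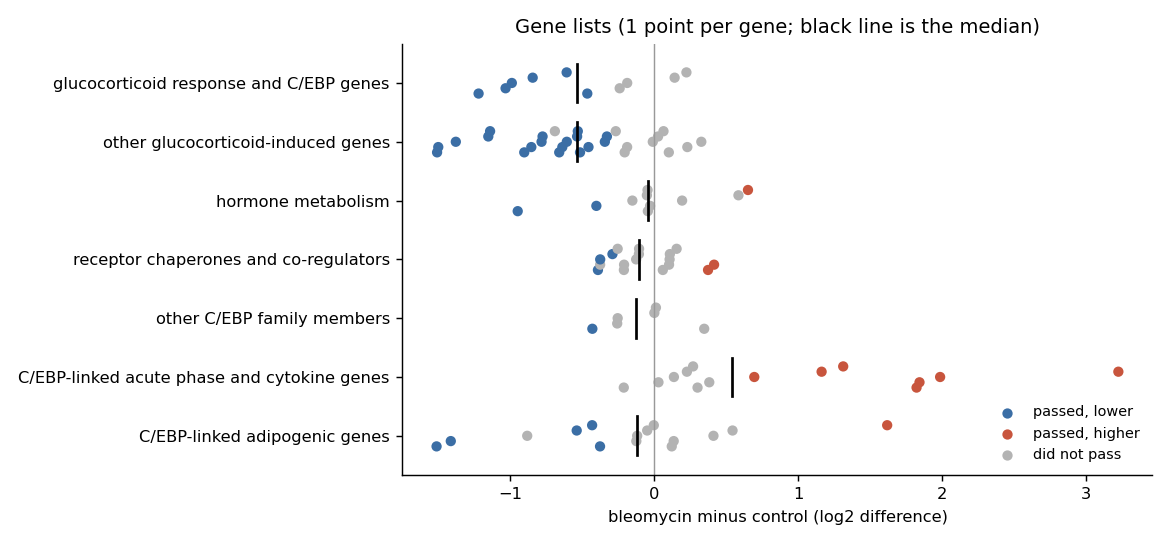
Log2 differences of bleomycin minus control for the 10 genes and 6 related lists, 1 point per gene, coloured by the test result, with the median as a black line. The medians of the 10 genes and of the other glucocorticoid-induced genes both lie at -0.53, while the acute phase and cytokine list has its median at 0.54 and reaches 3.22 in Saa3.

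Markers of other cells and of the sort were read on the same arrays. As background, 8.24% of all tested genes passed as lower and 9.12% as higher. The mesenchymal markers Pdgfra, Pdgfrb and Col1a1 were bright in both groups, and of 12 such markers 7 rose and 3 fell, Pdgfra by 0.43 ± 0.08. The mesenchymal sum ran from 14.99 to 15.18 in control and 15.21 to 15.42 in bleomycin samples. Larger differences were -0.89 for Pi16, -0.64 for Tcf21, 1.37 for Cspg4 and 1.34 for Thy1 (named outside the rule, after their values were seen). A shift among mesenchymal cell types was not tested. Markers of epithelium and blood endothelium, which the gate should remove, were present and lower in bleomycin samples: 12 of 17 epithelial and 10 of 13 endothelial markers fell and none rose, also at an unadjusted p under 0.05. Their summed intensity ran from 13.47 to 14.33 (log2) in control and 11.18 to 12.36 in bleomycin samples for epithelium, and from 12.45 to 13.50 and 11.70 to 12.13 for endothelium. No marker of either list lay below the median probe set without a gene on all arrays. Of 18 leukocyte markers 6 rose and 1 fell, with summed levels of 11.08 to 11.76 in control and 11.01 to 11.50 in bleomycin samples, and 3 of them, the neutrophil genes Ly6g, S100a8 and S100a9, lay below that median on all arrays (named outside the rule, after their values were seen). The sum mostly reflects the brightest marker, Lyz2, also named outside the rule. Lyz2 stood at 10.74 in control and 10.17 in bleomycin samples and did not pass (limma adjusted p = 0.0951). The overlapping sums thus say little of the other leukocyte markers. Lyz2 read 10.90 and 11.20 on control arrays 1 and 2 and 10.54 and 10.31 on 3 and 4. Epithelial and endothelial sums were likewise higher on control arrays 1 and 2, and which cells gave the Lyz2 signal was not tested. Of the first 3 on the list, Cd68 rose by 0.70 and Adgre1 by 0.50, while Ptprc differed by -0.48 and did not pass.

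The 10 genes and these markers were also compared in their order across the control arrays. Epithelial and endothelial markers were highest on control arrays 1 and 2. Among the 6 genes that fell, Hsd11b1 and Nr3c1 were higher on both control arrays 3 and 4 than on 1 and 2, and only Zbtb16 showed the reverse order. Without control replicates 1 and 2, the differences of Hsd11b1, Nr3c1, Nr3c2, Tsc22d3 and Cebpd were -1.13, -0.56, -0.60, -1.02 and -0.83, and all 5 passed (limma adjusted p between 0.00742 and 0.0251). Of all 22180 genes, 992 passed as lower in that fit. On control arrays 3 and 4 the summed epithelial level, 13.49 and 13.47, still lay above the bleomycin maximum of 12.36. The endothelial level there, 12.61 and 12.45, also lay above its bleomycin maximum of 12.13. Leaving out control replicates 1 and 2 thus does not separate the 5 genes from these markers, whose part was not tested.

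Early response and heat shock genes, which rise with stress and handling of cells, were also lower in bleomycin samples. On a list of 16 written after the data were seen, 14 fell and none rose (2 were higher at an unadjusted p under 0.05), with a median of -0.75. Among all tested genes 8.24% passed as lower. Fos fell by 0.69, Fosb by 1.33 and Jun by 0.66. The summed level ran from 15.14 to 15.29 in control and 14.20 to 14.69 in bleomycin samples, without overlap. Bleomycin replicate 4 had the highest summed level of these genes among the bleomycin arrays. It was also the highest bleomycin array in 5 of the 6 genes that fell. This was not particular to the genes that fell: it was highest in 7 of all 10 genes, including Sgk1 and Cebpb, which did not pass. How often bleomycin replicate 4 was highest among all tested genes was not counted. The same array was the highest bleomycin array in the summed epithelial (12.36), endothelial (12.13) and leukocyte (11.50) levels, though not in the mesenchymal level. The part of the early response and heat shock genes in the results, and that of the other marker lists, was not tested.

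**Figure D5:**
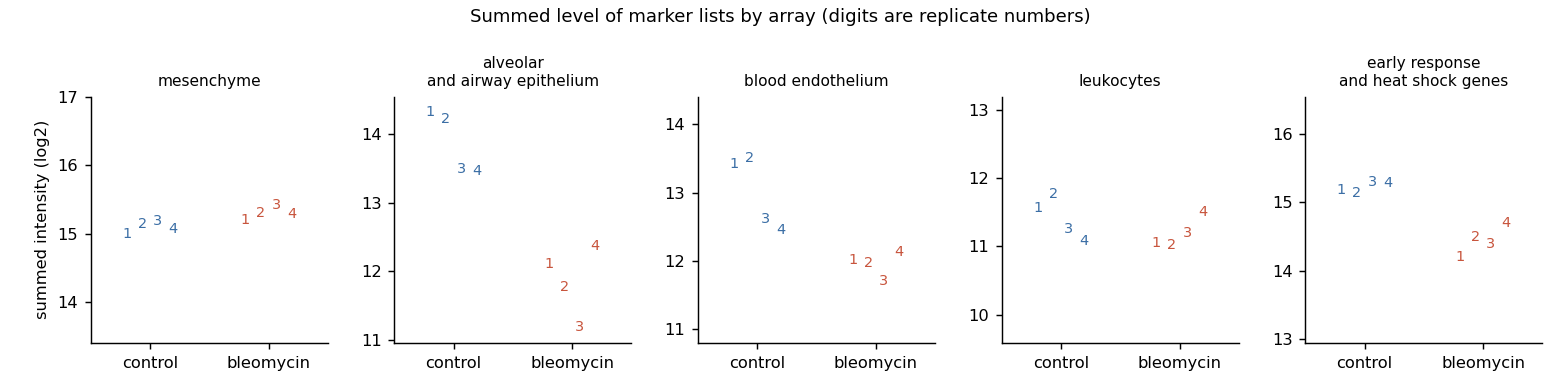
Summed intensity (log2) of 5 marker lists on each array; digits are replicate numbers and panels span the same height. Epithelial and endothelial markers stand highest on control arrays 1 and 2, and early response and heat shock genes are lower on all bleomycin arrays than on all control arrays.

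Within replicates 1 and 2 alone, with 2 arrays per group, 4 of the 10 genes passed as lower: Hsd11b1, Tsc22d3, Zbtb16 and Cebpd. In that subset 833 of 22180 genes passed as lower. Within replicates 3 and 4 alone none of the 10 passed (smallest limma adjusted p = 0.0519, for Nr3c2), and 5 were lower and 1 higher at an unadjusted p under 0.05. There 220 of 22180 genes passed as lower. The differences of Hsd11b1, Nr3c1, Nr3c2, Tsc22d3 and Cebpd in replicates 3 and 4 were -1.05, -0.47, -0.64, -0.86 and -0.72. In both subsets the groups did not overlap in any of the 6 genes. This follows from their separation over all arrays and adds no further evidence.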

How the data were processed

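The authors deposited 1 value per probe set and array. The deposited values were treated as log2 intensities, since they span 0.24 to 13.58; the table itself names no scale. How background was corrected and arrays were normalized is not given in the sources used here. Per the labels' protocols, cRNA was made from 100 ng of total RNA. Arrays give no read depth, and their number limits the precision. Of 41345 probe sets, 23521 had 1 gene in the platform annotation, 1814 several and 16010 none; only the first kind was tested. Bleomycin and control arrays were compared with limma 3.58.1 in R 4.3.3 (lmFit and eBayes, two-sided, Benjamini-Hochberg over 22180 genes, threshold 0.05), on the values as deposited.

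In a simulation with 200 of 22180 genes changed, limma found 56.7% of the genes changed by 1.5-fold, 92.5% at 2-fold and 98.5% at 4-fold. False calls made up 6.78%. In the data 3850 genes, 17.4%, passed, far more than were changed in the simulation. The adjusted p depends on that share, so the rates may differ in the data. The 10 genes and the lists were chosen with earlier results of these data known. Of 184 listed genes 176 were measured. From each related list the text may name the 3 passing genes that changed most in the commoner direction and 2 in the opposite one, and from each marker list the first 3; exceptions are marked. Probe sets of close relatives may share signal. Alternatives were blocks by replicate number or replicate pair, subsets of arrays, quantile normalization, median centring, filters on dim genes, the mean or the most variable probe set, robust eBayes with a trend, array weights and a threshold of 0.01. Counts of other glucocorticoid-induced genes under the alternatives, and the early response list, were added after seeing the data.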

Additional observations from a re-analysis of the deposited data

Results flagged for a closer look

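Within groups of 4 arrays, 2 of the 38 sets of values examined had 1 array that stood apart by more than Dixon's 95% limit, and chance flags about 1 in 20. Cebpb on bleomycin replicate 4 read 9.68, against 9.32 to 9.36 on the other bleomycin arrays, a gap of 0.902 of the range. Nr3c1 minus Nr3c2 on bleomycin replicate 1 was 2.70, against 3.15 to 3.20 on the others, a gap of 0.888 of the range.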

How the results depend on the processing

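Of 22 alternatives, 21 kept the count of the 10 genes that fell at 4 to 6; within replicates 3 and 4 alone it was 0. The count of genes that rose was 0 in all 22. Leaving out single arrays gave 5 to 6 lower. The other glucocorticoid-induced genes that fell numbered 14 to 19 without single arrays, 11 within replicates 1 and 2 alone and 4 within replicates 3 and 4 alone. Over all genes, the counts of higher and lower were 838 and 833 within replicates 1 and 2 alone, 503 and 220 within replicates 3 and 4 alone, 1205 and 992 without control replicates 1 and 2, 1079 and 879 at the threshold of 0.01, and 1497 to 1987 and 1306 to 1883 without single arrays. Same-numbered arrays deviated together only weakly (correlations of 0.063 to 0.129, not all over 0.1), so the numbers were not taken to pair the samples. Different-numbered arrays within replicates 1 and 2, or within 3 and 4, also correlated positively (0.071 to 0.109). Between these replicate pairs all correlations were negative (-0.14 to -0.067). Blocking by replicate pair gave 2293 genes higher and 2168 lower, with 6 of the 10 genes lower. Blocking by replicate number gave 1937 genes higher and 1838 lower. There, 6 of the 10 genes and 17 of the other glucocorticoid-induced genes were lower. Ncoa1, Ncoa3 and Stip1 lost their calls when replicate number was blocked (limma adjusted p of 0.0787, 0.06 and 0.0753). Ncoa1 also lost its call when replicate pair was blocked (0.0552).

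With quantile normalization the response differences were 0.43 for Cebpa minus Cebpb, 1.03 for Cebpa minus Cebpd and 0.60 for Cebpb minus Cebpd, and none passed. Without single arrays they ran from 0.32 to 0.55, 0.91 to 1.15 and 0.51 to 0.66, with too few arrays to pass (adjusted p between 0.0571 and 0.0762). With probe sets averaged, Nr3c1 minus Nr3c2 turned to -0.14 (exact permutation test, adjusted p = 0.457). Within replicates 1 and 2 alone Fkbp5 and Cebpa turned to -0.0765 and -0.006. The causes were not tested.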
